A study of Mus musculus with 17 samples.

Results

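Dendritic cells are the antigen-presenting cells that carry antigen from tissue to draining lymph nodes and prime T cells there. Conventional dendritic cells depend on the growth factor receptor Flt3 and express the transcription factor Zbtb46, and they fall into the Batf3-dependent cDC1 subset and the Irf4-expressing cDC2 subset. Synovial macrophages, the resident phagocytes of the joint lining, can share surface CD11c and MHC class II with dendritic cells. The transcript levels of 7 dendritic cell genes, Flt3, Zbtb46, Irf4, Batf3, Clec9a, Cd209a and Ccr7, were therefore followed across sorted synovial macrophage subsets. They were taken by symbol from a table of 22859 genes, all 7 were found, 6 passed the filter on low counts and 1, Clec9a, did not.

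The libraries were bulk RNA-seq of macrophages sorted from collagenase-digested synovium of adult mice. All mice, controls included, were Fcgr2b-/-, that is, without the inhibitory Fc gamma receptor. MHCII+CD11c+ macrophages gave 3 control libraries and 2 libraries taken 8 h after intravenous immune complexes (IC, ovalbumin with rabbit anti-ovalbumin antibody). MHCII+CD11c− and LYVE1+CX3CR1+ macrophages gave 3 control and 3 IC libraries each. The study gives several mice behind each point of an RNA-seq comparison of these subsets, but the sources used here do not say whether that holds for the Fcgr2b-/- libraries, so p-values measure the spread between libraries, which may be technical. Subsets were gated on surface CD11c and MHC class II, and Itgax and the MHC class II genes are therefore not read as findings. In bulk libraries, fewer cells of a type and less RNA per cell cannot be told apart.

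Library totals ran from 2301913 to 7248939 counts, and levels are given in CPM, the counts scaled to library size with TMM normalization. A floor of 3 counts in a library corresponded to 0.419 to 1.24 CPM, which covers counting error only. No library lacked any of the 11 macrophage markers followed (such as Csf1r, Mertk, Adgre1 and Maf), whose summed level was 2421 to 3070 CPM in MHCII+CD11c+ controls, 4209 to 4575 CPM in MHCII+CD11c+ IC libraries and 5551 to 8252 CPM in the MHCII+CD11c− libraries. Thus macrophage transcripts were present in every MHCII+CD11c+ library, at a summed level below that of every MHCII+CD11c− library. At equal depth the LYVE1+CX3CR1+ IC libraries held 11547 to 13823 detected genes against 13822 to 17694 in the other libraries, so zeros in that group come with fewer detected genes.

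The members lie on 7 chromosomes of the mm10 (GRCm38) genome, with gene bounds from GENCODE M21. Flt3 spans 147330741 to 147400489 on chromosome 5 (minus strand), Zbtb46 spans 181387762 to 181459426 on chromosome 2 (minus strand), and Irf4 spans 30749226 to 30766976 on chromosome 13 (plus strand). Batf3 spans 191097847 to 191108945 on chromosome 1 (plus strand), Clec9a spans 129408862 to 129424763 on chromosome 6 (plus strand), and Ccr7 spans 99144196 to 99155077 on chromosome 11 (minus strand). Cd209a spans 3743397 to 3748984 on chromosome 8 (minus strand).

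The RefSeq start (GRCm38.p6) of 4 members matched the GENCODE start, or for Irf4 lay 7 bases inside the gene bounds. The 250-base windows before these RefSeq starts are printed, to show how the promoters differ in base composition. Each runs 5′ to 3′ on the strand of its gene. Capitals mark matches, on either strand, to the ETS core GGAAGT or to TATAAA.
Flt3 (chr5:147400490-147400739, minus strand): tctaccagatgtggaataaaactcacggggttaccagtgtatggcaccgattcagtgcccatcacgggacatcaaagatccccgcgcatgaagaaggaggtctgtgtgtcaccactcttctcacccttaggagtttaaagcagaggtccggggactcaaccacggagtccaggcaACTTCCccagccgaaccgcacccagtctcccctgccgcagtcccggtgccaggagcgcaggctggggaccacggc
Clec9a (chr6:129408612-129408861, plus strand): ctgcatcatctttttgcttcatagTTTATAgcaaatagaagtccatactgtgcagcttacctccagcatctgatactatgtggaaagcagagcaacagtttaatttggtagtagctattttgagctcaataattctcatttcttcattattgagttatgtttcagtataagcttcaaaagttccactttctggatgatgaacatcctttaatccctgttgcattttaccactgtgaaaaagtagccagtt
Cd209a (chr8:3748985-3749234, minus strand): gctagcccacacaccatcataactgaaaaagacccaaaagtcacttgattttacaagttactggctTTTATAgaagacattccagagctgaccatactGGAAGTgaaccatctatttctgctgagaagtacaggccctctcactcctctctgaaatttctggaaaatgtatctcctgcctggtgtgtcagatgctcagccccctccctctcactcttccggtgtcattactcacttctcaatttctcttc
Irf4 (chr13:30748983-30749232, plus strand): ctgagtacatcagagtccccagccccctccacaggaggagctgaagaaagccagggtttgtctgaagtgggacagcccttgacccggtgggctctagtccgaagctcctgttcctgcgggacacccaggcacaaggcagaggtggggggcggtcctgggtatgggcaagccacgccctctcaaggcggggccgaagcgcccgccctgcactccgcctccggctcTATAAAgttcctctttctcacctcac

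The Flt3 and Irf4 windows were rich in G and C, at 59.2% and 63.6%, with 13 and 11 CpG dinucleotides. The Clec9a and Cd209a windows held 35.6% and 44.8% G and C, with 0 and 1 CpG dinucleotides. GGAAGT was present in the windows of Flt3 and Cd209a and in 19.7% of 32851 promoter windows genome-wide. TATAAA was present in 3 of the 4 windows, those of Clec9a, Cd209a and Irf4, against 12.4% of all windows. Only in Irf4 did it lie close to the RefSeq start, 26 to 21 bases before it. Neither the AP-1 motif TGANTCA, which 6.75% of windows hold, nor the paired IRF motif (GAAA repeated 2 bases on), which 2.98% hold, was found in these 4 windows. These matches describe letters and say nothing of binding.

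All 7 genes had their highest group mean in an MHCII+CD11c+ group. In MHCII+CD11c+ controls the level per kilobase of merged exon was 198 CPM for Cd209a, 61.8 for Irf4, 29.6 for Batf3, 16.6 for Ccr7, 5.95 for Flt3, 4.94 for Zbtb46 and 1.38 for Clec9a. After IC the level per kilobase was 71.5 CPM for Cd209a, 42.3 for Ccr7, 39.4 for Irf4 and 23.5 for Batf3, with Flt3 at 7.25, Zbtb46 at 5.23 and Clec9a at 0.290. Zbtb46 varied least over the 5 MHCII+CD11c+ libraries, its highest level being 1.27 times its lowest. The same ratio was 2.02 for Irf4, 2.04 for Batf3, 3.34 for Flt3, 4.68 for Ccr7 and 5.64 for Cd209a.

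**Figure D1:**
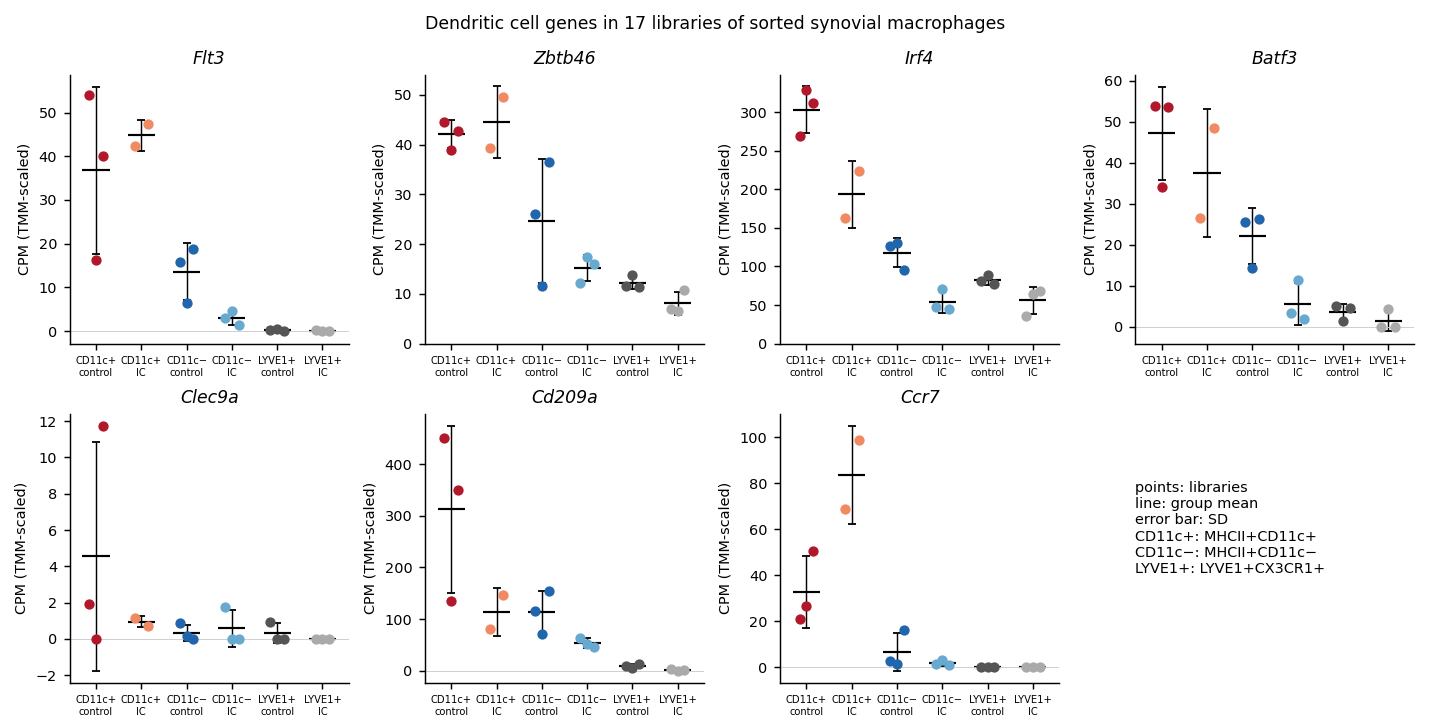
Levels of the 7 dendritic cell genes in 17 libraries, in TMM-scaled CPM, one panel a gene on its own linear axis. Points are libraries, lines are group means and bars are SDs. Irf4 in the 5 MHCII+CD11c+ libraries, 163 to 329 CPM, sits above all 12 other libraries, whereas Clec9a lies at or near 0 outside 1 control library.

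Flt3 encodes the receptor tyrosine kinase for Flt3 ligand, which sustains dendritic cell development. Its level was 54.0, 16.2 and 40.1 CPM in the MHCII+CD11c+ control replicates 1 to 3 and 42.3 and 47.3 CPM in the IC replicates 1 and 2. In MHCII+CD11c− macrophages it was 15.8, 6.36 and 18.7 CPM in controls and 2.88, 4.53 and 1.38 CPM after IC. LYVE1+CX3CR1+ macrophages ranged from 0 to 0.541 CPM, which is at the floor. Control replicate 2 was the lowest of its group in both MHCII+ subsets, and it made the control groups overlap, while the IC groups were separated. Within each control replicate number Flt3 was higher in the MHCII+CD11c+ library, though the reported fit did not pair by number.

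In controls the Flt3 difference between MHCII+CD11c+ and MHCII+CD11c− macrophages was 1.44 ± 0.56 on the log2 scale (SE) and did not pass the test (edgeR quasi-likelihood test with Benjamini-Hochberg adjustment over 15272 genes, adjusted p = 0.118). Without MHCII+CD11c+ control replicate 2 the difference was 1.80 and passed (adjusted p = 0.0455). After IC the level was 44.8 ± 3.51 CPM (SD, n = 2) in MHCII+CD11c+ against 2.93 ± 1.58 CPM (SD, n = 3) in MHCII+CD11c− macrophages, and the difference of 3.90 ± 0.65 passed (adjusted p = 0.00069). Against LYVE1+CX3CR1+ macrophages, pooled counts of 447 and 4 gave a ratio of 151 in controls, with a 95% counting interval of 58.6 to 557, and 546 and 1 counts gave 401 (71.7 to 15865) after IC.

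Among the transcription factors, Zbtb46, a zinc finger factor of conventional dendritic cells and their committed precursors that is also found in endothelium, was the steadiest. Its level was 44.5, 39.0 and 42.7 CPM in MHCII+CD11c+ controls and 39.4 and 49.7 CPM after IC. It was 26.0, 11.5 and 36.4 CPM in MHCII+CD11c− controls and 12.2, 17.3 and 16.0 CPM after IC, and 6.61 to 13.8 CPM in LYVE1+CX3CR1+ macrophages. The MHCII+CD11c+ libraries were all above the others, and the MHCII+CD11c− controls were spread over a wide range.

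Zbtb46 differed between MHCII+CD11c+ and MHCII+CD11c− macrophages by 0.78 ± 0.37 on the log2 scale in controls (adjusted p = 0.214), which did not pass. After IC the difference was 1.55 ± 0.40 (adjusted p = 0.0248), and it passed. Leaving out any 1 of the 5 IC libraries ended that call, with adjusted p = 0.0808 and 0.392 without MHCII+CD11c+ replicates 1 and 2 and 0.0875, 0.0575 and 0.0734 without MHCII+CD11c− replicates 1 to 3. Averaged over both treatments the difference was 1.17 ± 0.27 (adjusted p = 0.0040), which all alternatives kept. Zbtb46 was also higher than in LYVE1+CX3CR1+ macrophages, by 1.78 ± 0.38 in controls (adjusted p = 0.0015) and 2.46 ± 0.42 after IC (adjusted p = 0.0003).

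Irf4, a factor that cDC2 need for antigen presentation and migration and that activated macrophages and lymphocytes also use, had counts in all libraries. It reached 269, 329 and 312 CPM in MHCII+CD11c+ controls and 163 and 224 CPM after IC. MHCII+CD11c− macrophages held 127, 130 and 96.0 CPM in controls and 47.2, 70.9 and 44.6 CPM after IC. In LYVE1+CX3CR1+ macrophages it was 81.1, 89.2 and 77.2 CPM in controls and 36.3, 64.5 and 68.0 CPM after IC. The MHCII+CD11c+ libraries stood apart at either treatment, whereas the other subsets overlapped after IC.

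Against MHCII+CD11c− macrophages, the Irf4 level of MHCII+CD11c+ macrophages was higher by 1.36 ± 0.23 on the log2 scale in controls (adjusted p = 0.00032) and by 1.83 ± 0.25 after IC (adjusted p = 8.6e-05). Among the 6 members tested it was the only one called in controls, where 3.67% of all genes tested were called higher. Against LYVE1+CX3CR1+ macrophages the differences were 1.88 ± 0.23 and 1.78 ± 0.25 (adjusted p = 3.2e-06 and 3.4e-05). Irf4 in MHCII+CD11c− macrophages after IC differed from LYVE1+CX3CR1+ by −0.05 ± 0.23, with a sign that depended on the setting.

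Batf3, an AP-1 family factor required for cDC1 development, was 53.8, 34.2 and 53.7 CPM in MHCII+CD11c+ controls and 26.4 and 48.6 CPM after IC. MHCII+CD11c− controls held 25.6, 14.3 and 26.4 CPM and the IC libraries 3.33, 11.5 and 1.93 CPM. LYVE1+CX3CR1+ macrophages held at most 5.04 CPM, with 2 of 3 IC libraries at 0. The MHCII+CD11c+ and MHCII+CD11c− groups did not overlap at either treatment. Even so, the differences of 1.10 ± 0.73 in controls and 2.71 ± 0.83 after IC did not pass (adjusted p = 0.432 and 0.0827). Without MHCII+CD11c− IC replicate 2 the latter was 3.81 (adjusted p = 0.0297).

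Averaged over treatments Batf3 differed by 1.91 ± 0.55 (adjusted p = 0.0259). That call ended without MHCII+CD11c+ control replicate 1 (adjusted p = 0.0513) or IC replicate 2 (0.152), and without MHCII+CD11c− control replicate 2 (0.0526), IC replicate 1 (0.0601) or IC replicate 3 (0.0523), and with no filter on low counts (0.0609). Against LYVE1+CX3CR1+ macrophages Batf3 was higher by 3.63 ± 0.81 in controls and 4.59 ± 0.95 after IC (adjusted p = 0.0044 and 0.0038).

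Clec9a, the cDC1 receptor for actin exposed by dead cells, was near the count floor. MHCII+CD11c+ controls held 9, 0 and 31 counts and the IC libraries 8 and 4 counts, or 1.91, 0, 11.7, 1.18 and 0.733 CPM. All 6 MHCII+CD11c− libraries together held 13 counts, and the 6 LYVE1+CX3CR1+ libraries held 6. More than 3 counts were thus seen in 4 of 5 MHCII+CD11c+, 2 of 6 MHCII+CD11c− and 1 of 6 LYVE1+CX3CR1+ libraries. Of the 52 counts in the MHCII+CD11c+ libraries, control replicate 3 held 31. MHCII+CD11c− IC replicate 1, at 1.77 CPM, was above both MHCII+CD11c+ IC libraries.

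The Clec9a mean was 3.11 ± 4.87 CPM (SD, n = 5) in MHCII+CD11c+ and 0.467 ± 0.720 CPM (n = 6) in MHCII+CD11c− libraries, a difference of 2.64 CPM in a two-sided exact permutation test (p = 0.156). Against 0.157 ± 0.386 CPM (n = 6) in LYVE1+CX3CR1+ libraries the difference was 2.95 CPM (exact permutation p = 0.0563). Without MHCII+CD11c+ control replicate 3 the differences were 0.488 and 0.798 CPM (exact permutation p = 0.343 and 0.124). In the fit with no filter on low counts Clec9a was called higher than in LYVE1+CX3CR1+ macrophages, with a log2 difference of 4.43 (adjusted p = 0.0425), and not against MHCII+CD11c− (2.11, adjusted p = 0.352).

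Cd209a, a C-type lectin of the DC-SIGN family found on cDC2 and monocyte-derived dendritic cells, was the most abundant member per kilobase. It was 452, 135 and 351 CPM in MHCII+CD11c+ controls and 80.1 and 146 CPM after IC. MHCII+CD11c− macrophages held 115, 71.4 and 154 CPM in controls and 63.2, 51.9 and 44.9 CPM after IC, and LYVE1+CX3CR1+ macrophages held at most 12 CPM. Control replicate 2 was again the lowest of its group in both MHCII+ subsets, and the MHCII+ control groups overlapped. Within each control replicate number the MHCII+CD11c+ library was the higher, though the reported fit did not pair by number.

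Cd209a differed between MHCII+CD11c+ and MHCII+CD11c− macrophages by 1.47 ± 0.49 in controls and 1.08 ± 0.54 after IC, and neither passed (adjusted p = 0.0902 and 0.412). Without MHCII+CD11c+ control replicate 2 the control difference was 1.83 (adjusted p = 0.0088). The treatment average of 1.28 ± 0.36 passed (adjusted p = 0.0310). Its call ended without MHCII+CD11c+ control replicate 1 (0.0606), control replicate 3 (0.0529) or IC replicate 2 (0.214). It also ended without MHCII+CD11c− control replicate 1 or 2 (0.0611 and 0.0546) and without IC replicate 2 or 3 (0.0678 and 0.0704), and with no filter on low counts it ended as well (0.0676). MHCII+CD11c+ and LYVE1+CX3CR1+ macrophages differed more, by 5.21 ± 0.59 in controls and 6.39 ± 0.75 after IC (adjusted p = 3.6e-05 and 9.1e-05).

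The Cd209 family are paralogs in mouse, so the sharing of reads among them is uncertain. Relative to MHCII+CD11c− macrophages, Cd209b, Cd209f and Cd209g were lower in MHCII+CD11c+ macrophages, by −3.84 ± 0.51, −4.82 ± 0.65 and −5.04 ± 0.67 averaged over treatments (adjusted p = 9.0e-05, 0.00036 and 0.0003). Cd209a was the only family member of 7 called higher in that comparison. Of the summed family level per kilobase, Cd209a made up 69.1 to 74.7% in MHCII+CD11c+ controls and 64.1 to 71.2% after IC. It made up 11.7 to 17.6% in MHCII+CD11c− controls and 3.48 to 13.7% after IC.

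Ccr7, the receptor for Ccl19 and Ccl21 that guides dendritic cells to lymph nodes, had no count in any LYVE1+CX3CR1+ library. It was 21.1, 26.6 and 50.7 CPM in MHCII+CD11c+ controls and 68.6 and 98.6 CPM after IC. MHCII+CD11c− macrophages held 2.77, 1.41 and 16.4 CPM in controls and 1.55, 3.30 and 0.826 CPM after IC. Thus no MHCII+CD11c− library reached the lowest MHCII+CD11c+ library, and control replicate 3 was the highest of both control groups.

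Between the MHCII+ control groups Ccr7 differed by 2.32 ± 0.74 (adjusted p = 0.0726), and without MHCII+CD11c− control replicate 3 by 3.98 (adjusted p = 0.0013). After IC it was higher by 5.41 ± 0.88 (adjusted p = 0.0024), from means of 83.6 ± 21.2 CPM (SD, n = 2) and 1.89 ± 1.27 CPM (SD, n = 3). Against the floor of the LYVE1+CX3CR1+ libraries (3 counts in each) Ccr7 was at least 57.8-fold higher in controls and at least 81.8-fold higher after IC. In MHCII+CD11c− controls it was at least 12.1-fold higher than in LYVE1+CX3CR1+ controls, a bound that came to 3.69-fold without control replicate 3.

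Counted together, 1 of the 6 tested members was called higher in MHCII+CD11c+ macrophages against their CD11c− counterparts in controls, 4 after IC, where 2.29% of genes were called higher, and 6 averaged over treatments, where 6.89% were. The members' libraries did not overlap for 4 of 6 genes in controls, against 12.6% of all genes tested, and for 6 of 6 after IC, against 19.6%. Their median log2 difference was 1.40 in controls and 2.27 after IC, while the median of all genes was −0.03 in both. All 6 were called higher than in LYVE1+CX3CR1+ macrophages in controls and after IC, against 7.4% and 8.42% of genes. These comparisons share libraries.

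**Figure D2:**
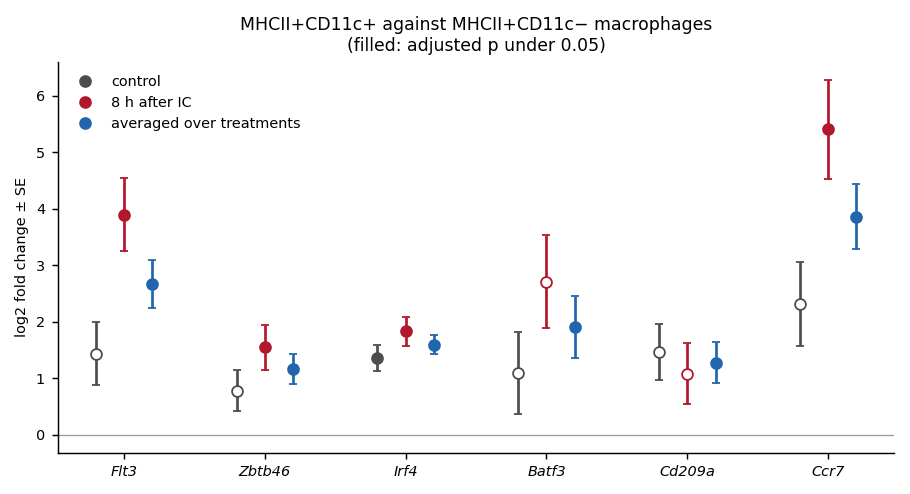
Log2 difference between MHCII+CD11c+ and MHCII+CD11c− macrophages for the 6 tested members, in controls, after IC and averaged over treatments, with SE bars. Filled points passed at an adjusted p under 0.05. All 18 values lie above 0, and Ccr7 after IC is the farthest at 5.41.

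MHCII+CD11c− macrophages carried part of the same pattern. Against LYVE1+CX3CR1+ controls, 3 members were called higher (1.22% of genes), namely Cd209a by 3.74 ± 0.56 (adjusted p = 0.0045), Flt3 (pooled counts of 166 and 4, a ratio of 53.6 with a counting interval of 20.5 to 199) and Ccr7. The Ccr7 call ended without LYVE1+CX3CR1+ control replicate 1 or 3 (adjusted p = 0.0669 and 0.0714). After IC, 2 were called (4.79% of genes), Cd209a by 5.30 ± 0.73 (adjusted p = 0.00091) and Flt3, with 40 counts against 1. This Flt3 call ended without MHCII+CD11c− IC replicate 2 (adjusted p = 0.0648) or LYVE1+CX3CR1+ IC replicate 2 or 3 (0.0585 and 0.0505). Zbtb46, Batf3 and Irf4 did not pass in either comparison.

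The response to IC was compared within each subset. In MHCII+CD11c+ macrophages none of the 6 tested members was called, and 0.216% of all genes were, every one of them higher. Counts at an unadjusted p under 0.05 were 2 of 6, Irf4 and Cd209a, against 5.21% of all genes. Irf4 was 303 ± 30.7 CPM (SD, n = 3) in controls and 193 ± 43.1 CPM (SD, n = 2) after IC without overlap, a difference of −0.65 ± 0.26 (adjusted p = 0.764). Cd209a differed by −1.47 ± 0.57 (adjusted p = 0.820) with overlapping libraries.

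Ccr7 in MHCII+CD11c+ macrophages was 32.8 ± 15.8 CPM (SD, n = 3) in controls and 83.6 ± 21.2 CPM (SD, n = 2) after IC, a difference of 1.36 ± 0.75 that did not pass (adjusted p = 1). Both IC libraries were above all controls. A voom fit with library weights called it (1.65, adjusted p = 0.0055). Flt3, Zbtb46 and Batf3 differed by 0.29 ± 0.59, 0.08 ± 0.40 and −0.33 ± 0.80, and each changed sign under at least 1 alternative.

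In MHCII+CD11c− macrophages Irf4 fell after IC, from 118 ± 18.9 to 54.2 ± 14.5 CPM (SD, n = 3 each), by −1.12 ± 0.23 on the log2 scale (adjusted p = 0.0169), and 0.157% of all genes were called lower. The call ended without control replicate 1 (adjusted p = 0.0970), IC replicate 1 (0.0680) or IC replicate 3 (0.167), and in a fit of these groups alone (0.0577). The other 5 tested members did not pass. Flt3 had a difference of −2.17 ± 0.60 (adjusted p = 0.107), which passed without control replicate 2 (−2.52, adjusted p = 0.0436). Batf3, Cd209a and Ccr7 had −1.95 ± 0.77, −1.08 ± 0.49 and −1.73 ± 0.81 (adjusted p = 0.369, 0.490 and 0.505). Without control replicate 3 the Ccr7 difference was −0.097.

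In LYVE1+CX3CR1+ macrophages no tested member was called after IC, where 0.963% of all genes were. Cd209a was 8.21 ± 3.71 CPM in controls and 1.29 ± 1.32 CPM after IC (SD, n = 3 each), a difference of −2.65 ± 0.78 (adjusted p = 0.142). At an unadjusted p under 0.05 Cd209a and Irf4 (−0.55 ± 0.23) were the 2 members below it, as were 14.1% of all genes. Here the median of all genes was itself −0.14.

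Whether the IC response differed between the MHCII+ subsets was tested as an interaction. Flt3 gave 2.46 ± 0.84 (unadjusted p = 0.0072) and Ccr7 gave 3.09 ± 1.10 (unadjusted p = 0.0143), and neither survived adjustment (adjusted p = 1 for both). edgeR called 0 of 15272 genes in that interaction, and 3.25% had an unadjusted p under 0.05. Hence a different IC response of Flt3 or Ccr7 in MHCII+CD11c+ macrophages was not shown by these libraries.

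**Figure D3:**
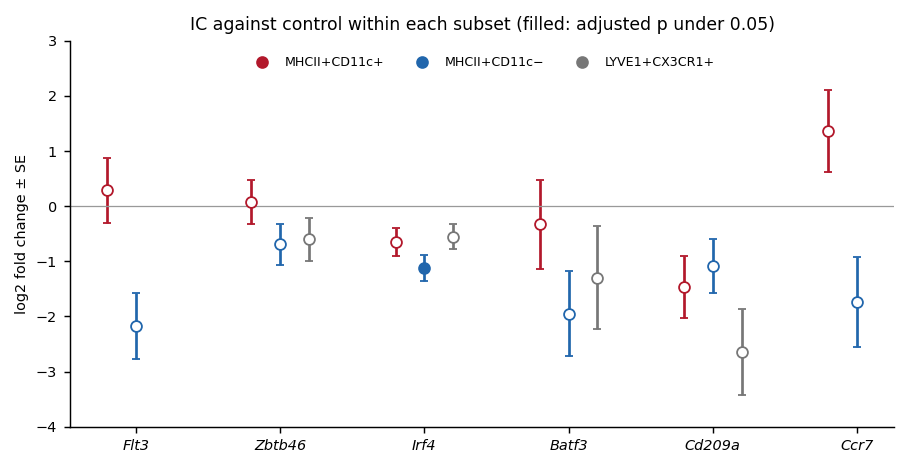
Log2 difference between IC and control libraries within each macrophage subset for the 6 tested members, with SE bars. Filled points passed at an adjusted p under 0.05, which holds for Irf4 in MHCII+CD11c− macrophages alone (−1.12). Flt3 and Ccr7 are left out for LYVE1+CX3CR1+ macrophages, where they lie at the count floor.

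Other genes of each dendritic cell program were counted from lists that include the members, with values averaged over treatments for MHCII+CD11c+ against MHCII+CD11c− macrophages. In that comparison 6.89% of all genes tested were called higher and 7.54% lower, the shares to set beside each list below. Of 12 conventional dendritic cell core genes, 9 were called higher, 0 lower and 3 were not called, with a median of 2.52 against −0.04 for all genes. Called beside Flt3 and Zbtb46 were P2ry10 (3.98 ± 0.45), Bcl11a (3.42 ± 0.67), Dpp4 (2.75 ± 0.43), Runx3 (2.53 ± 0.31), Traf1 (2.51 ± 0.36), Slamf7 (1.46 ± 0.38) and Cbfa2t3 (1.24 ± 0.23). Slamf7 lost its call without MHCII+CD11c+ IC replicate 2 (adjusted p = 0.138) or MHCII+CD11c− control replicate 1 (0.0517). Dpp4 is a surface peptidase, while Bcl11a, Runx3 and Cbfa2t3 are transcriptional regulators. In controls alone 4 of the 12 were called higher (3.67% of all genes tested), and after IC 8 were (2.29%).

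The cDC1 list gave a mixed pattern. Of 9 tested genes 4 were called higher, namely Batf3, the adhesion protein Cd24a (4.31 ± 0.32), the lysosomal amidase Naaa (1.29 ± 0.19) and Wdfy4, which cDC1 need for cross-presentation (1.18 ± 0.17). Irf8, the factor that specifies cDC1, was called lower (−0.80 ± 0.26, adjusted p = 0.0462). Its call ended without any 1 of 8 libraries, all but MHCII+CD11c+ control replicates 1 and 2 and MHCII+CD11c− IC replicate 3, with an adjusted p of 0.0559 to 0.280. Xcr1, the cDC1 chemokine receptor, was 1.86 ± 0.79 CPM in MHCII+CD11c+ controls (SD, n = 3) and 4.42 ± 0.23 CPM after IC (SD, n = 2) and was not called.

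Of 11 cDC2 genes 3 were called higher and 2 lower, with a median of −0.03. Beside Irf4 and Cd209a the adhesion molecule Epcam was called higher, with 40 and 35 counts in the MHCII+CD11c+ control and IC groups against 0 and 1 in MHCII+CD11c− macrophages, so no fold is given. That call ended with surrogate variables in the fit (adjusted p = 0.0800). The factor Klf4 (−0.57 ± 0.13) and the lectin Clec10a (−1.99 ± 0.55, adjusted p = 0.0307) were lower. Clec10a lost its call without any 1 of 7 libraries (adjusted p of 0.0540 to 0.177), that is, all but MHCII+CD11c+ control replicate 3, MHCII+CD11c− control replicate 2 and MHCII+CD11c− IC replicates 1 and 2.

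Of 10 tested genes of mature migratory dendritic cells 5 were called higher and 1 lower, with a median of 3.31. The summed level of the list was 548 to 685 CPM in MHCII+CD11c+ controls and 605 to 934 CPM in MHCII+CD11c− controls. After IC the sum was 795 to 1393 CPM and 709 to 950 CPM. The chemokines Ccl22 (5.88 ± 0.70) and Ccl17 (5.72 ± 0.76), which attract Ccr4-bearing T cells, had the largest differences, followed by Ccr7 (3.86 ± 0.57), the actin bundler Fscn1 (3.31 ± 0.64) and the signalling inhibitor Socs2 (3.31 ± 0.81). Socs2 lost its call without MHCII+CD11c+ IC replicate 2 (adjusted p = 0.0588). Marcksl1, a membrane-linked actin regulator, was lower (−1.13 ± 0.15). None of 7 plasmacytoid dendritic cell genes was called higher and 3 were called lower, namely Siglech (−4.37 ± 0.59), Tcf4 (−1.05 ± 0.19) and Bst2 (−1.23 ± 0.32). Without MHCII+CD11c+ IC replicate 2 the Bst2 call ended (adjusted p = 0.0986), as it did with surrogate variables (0.143).

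**Figure D4:**
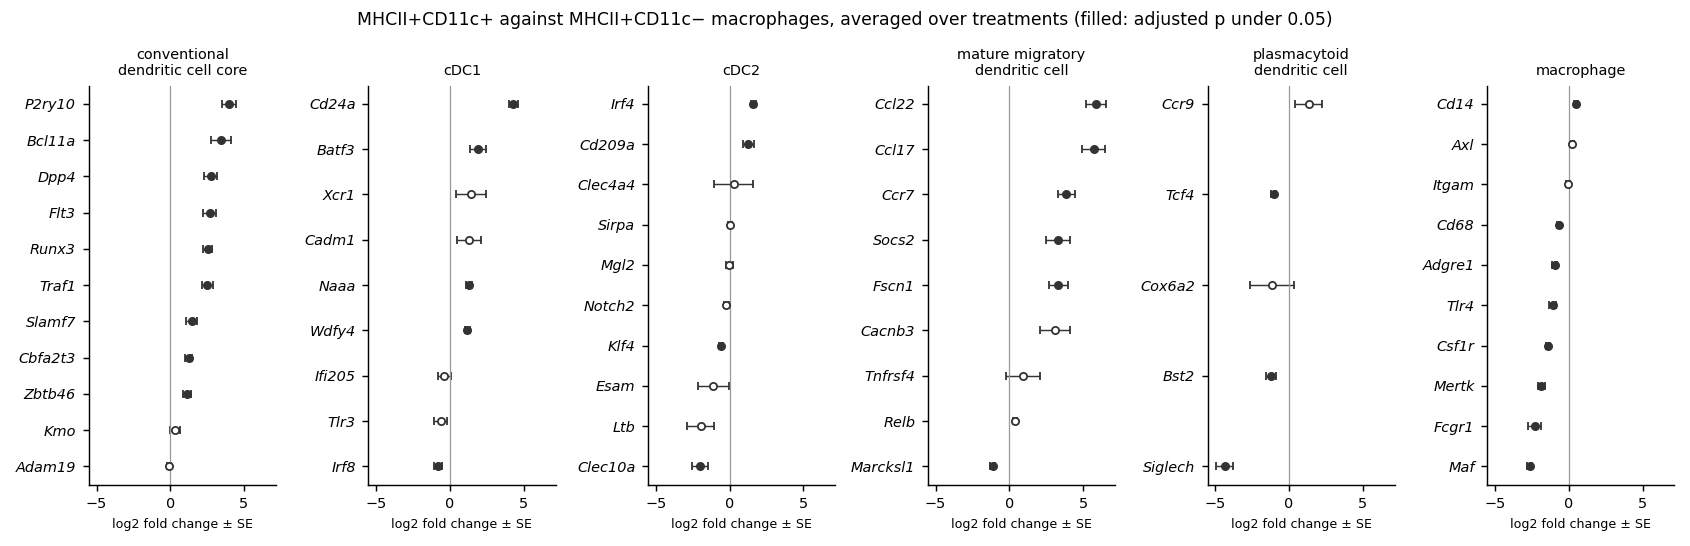
Log2 difference between MHCII+CD11c+ and MHCII+CD11c− macrophages averaged over treatments, with SE bars, for genes of 5 dendritic cell lists and most genes of the macrophage list. Filled points passed at an adjusted p under 0.05. Left out are 5 genes (Kit, Epcam, Cd200, Spib and Ly6d) with no count throughout an MHCII+ group, though Epcam was called higher. Ccl22 (5.88) and Ccl17 (5.72) lie farthest right of those drawn, and Siglech (−4.37) and Maf (−2.66) lie far left.

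The macrophage list moved the other way. Of 11 genes 8 were called lower and 1 higher, where 7.54% of all genes were called lower, and their median was −1.08. Among the lower ones were the transcription factor Maf (−2.66 ± 0.17), the receptors Fcgr1 (−2.32 ± 0.43), Mertk (−1.86 ± 0.26), Csf1r (−1.41 ± 0.15) and Tlr4 (−1.08 ± 0.23), as well as Adgre1 and Cd68. The lipopolysaccharide co-receptor Cd14 was called higher (0.48 ± 0.16, adjusted p = 0.0390). Its call ended without MHCII+CD11c+ control replicate 2 or 3, either MHCII+CD11c+ IC library, MHCII+CD11c− control replicate 1 or 3 or MHCII+CD11c− IC replicate 2 (adjusted p of 0.0509 to 0.102). The part of this macrophage gene difference in the members' levels was not tested.

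**Figure D5:**
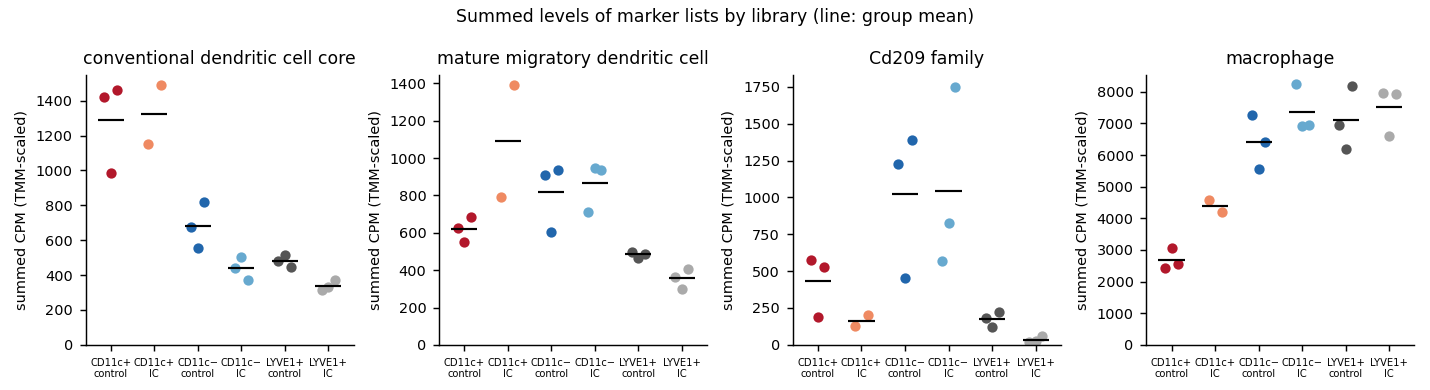
Summed level of 4 gene lists in each library, in TMM-scaled CPM on linear axes, with lines at group means. The conventional dendritic cell core sum is 985 to 1490.6 CPM in the MHCII+CD11c+ libraries and at most 817 CPM elsewhere, whereas the macrophage sum is lowest in the MHCII+CD11c+ libraries. The mature migratory sum overlaps in controls, at 548 to 685 CPM in MHCII+CD11c+ and 605 to 934 CPM in MHCII+CD11c− libraries.

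Around the members' pathways, 3 of 9 genes of the Flt3 and GM-CSF receptor axis were called higher averaged over treatments. They were Flt3 and the GM-CSF receptor chains Csf2ra (0.78 ± 0.14) and Csf2rb (1.71 ± 0.27). Csf2rb has a near-identical paralog, Csf2rb2, so its counts are uncertain. Of 17 dendritic cell transcription factors 6 were called higher, 3 lower and 8 were not called. Beside Irf4, Batf3 and Zbtb46 the higher ones were Nfil3 (1.51 ± 0.21), Id2 (1.29 ± 0.22) and Ikzf1 (0.47 ± 0.15), and the lower ones were Irf8, Klf4 and Tcf4. Ikzf1 lost its call (adjusted p of 0.0509 to 0.223) without MHCII+CD11c+ control replicate 1 or 3 or IC replicate 2, or without MHCII+CD11c− control replicate 1 or 2 or IC replicate 2 or 3.

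For Ccr7, 3 genes of its axis could be tested, and beside Ccr7 the kinase Prkcd was called higher (0.90 ± 0.13). The ligand genes Ccl19 and Ccl21a were not analysed here. Of 4 tested genes beside Clec9a on its list of neighbouring lectins and damage receptors, none was called. Among the other lists, 2 of 7 monocyte genes were called higher, the chemokine receptor Ccr2 (1.45 ± 0.34) and Nr4a1 (0.60 ± 0.17). Both lost their call without MHCII+CD11c+ IC replicate 2 (adjusted p = 0.0762 and 0.101).

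Markers of other cells were also followed beside the members. The B cell sum was 1.49 to 6.05 CPM in MHCII+CD11c+ controls and 12.2 to 42.2 CPM in MHCII+CD11c− controls, with 0 of 5 genes called higher and 2 called lower averaged over treatments. Of 7 T and NK cell genes 3 were found and 2 were tested. The adhesion receptor Cd2 was called higher (2.47 ± 0.37). Cd3d, at 0 in the MHCII+CD11c+ controls but with counts in both MHCII+CD11c+ IC libraries, was not called. The T and NK cell sum was 79.8 to 97.7 CPM in MHCII+CD11c+ controls and 20.3 to 28.2 CPM in MHCII+CD11c− controls. After IC it was 53.9 to 85.5 CPM in MHCII+CD11c+ and 5.76 to 17.9 CPM in MHCII+CD11c− macrophages. Of 6 neutrophil genes Csf3r was called lower (−1.53 ± 0.31) and the other 5 were not called. In controls those 5 differed by 1.06 (S100a9) to 2.08 (Mmp8), and the neutrophil sum was 74.3 to 271 CPM in MHCII+CD11c+ and 39.8 to 199 CPM in MHCII+CD11c− libraries. No mast cell, fibroblast or endothelial gene was called. Whether such cells contributed to the members' levels was not tested.

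The genes whose levels ran most closely with each member over the 17 libraries are given as a description, since points share subset, treatment and depth. For Flt3 they were Klrk1 (Pearson r = 0.981) and Ctnnd2 (0.966), and for Ccr7 they were Klrk1 (0.973) and Ccl22 (0.965). Klrk1 encodes the activating receptor NKG2D, and its group mean was 35.2 CPM in MHCII+CD11c+ controls, 51.9 CPM after IC, 6.54 and 3.20 CPM in the MHCII+CD11c− groups and 0 in both LYVE1+CX3CR1+ groups. For Zbtb46 the closest were Ptp4a2 (0.950) and P2ry10 (0.949), for Irf4 Tet2 (0.960) and Tk1 (0.951), for Batf3 Rtl5 (0.944) and Ramp1 (0.943), and for Cd209a Plbd1 (0.969) and Nedd4 (0.968). Among the members, Ccr7 and Flt3 ran most closely (r = 0.950), and Cd209a and Irf4 least (r = 0.664).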

How the data were processed

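Macrophages sorted from synovium were profiled by bulk RNA-seq (17 libraries, 6 groups from the labels). The authors prepared stranded libraries from 5 ng total RNA, removed 3 bases from read 1, trimmed with Trim Galore, checked quality with FastQC, aligned to mm10 with HISAT2 and counted with featureCounts. Versions, annotation, strand setting and treatment of multimapping reads are not given in the sources used here. The deposited values are raw counts per gene by the authors. 1 column that matches no sample was not used.

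Counts were fitted with edgeR 4.0.16 (R 4.3.3): TMM scaling, filterByExpr with a minimum count of 10 (15272 of 22859 genes kept), 6 group means, robust quasi-likelihood F test, Benjamini-Hochberg adjustment over all genes tested and calls at 0.05. The authors' own test was DESeq2, run here (1.42.0) as an alternative. The fit left 11 residual degrees of freedom and a biological coefficient of variation of 45.1%. Members removed by the filter were compared by two-sided exact permutation of mean CPM in scipy 1.17.1. No 2 libraries of a group agreed within sampling noise (lowest chi-square per degree of freedom 6.77). Library totals of 2301913 to 7248939 counts set the floor of 3 counts, and counting intervals are at 95%.

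Named genes were the 7 members, genes of marker and pathway lists, and the 2 genes most correlated with each tested member. The members and lists were chosen with earlier results of these data known. Gene bounds and exon lengths came from GENCODE M21 (22266 genes matched by symbol), and promoter windows from RefSeq (6 of 7 members matched). The alternatives were DESeq2 size factors, the DESeq2 test, voom with quality weights (limma 3.58.1), 5 surrogate variables (sva 3.50.0), no filter, a threshold of 0.01, equal depth, a fit of the compared groups alone, replicate blocks and leaving out each library. The scripts were tested on simulated data. Some genes of the lists are counted but not reported by name here.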

Additional observations from a re-analysis of the deposited data

Results flagged for a closer look

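Runx3, a transcription factor of the conventional dendritic cell core list, had an IC response that differed between subsets by the interaction test. It was 84.9, 67.1 and 84.7 CPM in MHCII+CD11c+ controls and 84.8 and 90.3 CPM after IC, and 7.60 to 17.9 CPM in the MHCII+CD11c− libraries. LYVE1+CX3CR1+ controls held 1, 0 and 3 counts, and the IC libraries 14, 46 and 8 counts. The log2 response in LYVE1+CX3CR1+ macrophages was 4.86 ± 0.66 (edgeR, adjusted p = 0.0004). The response in MHCII+CD11c+ macrophages minus that in LYVE1+CX3CR1+ macrophages was −4.71 ± 0.82 (adjusted p = 0.0230), and for MHCII+CD11c− minus LYVE1+CX3CR1+ macrophages it was −4.47 ± 0.80 (adjusted p = 0.0416). The control level in LYVE1+CX3CR1+ macrophages was at the floor, so the size of these values depends on the prior count of the fit.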

How the results depend on the processing

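Of the 6 tested members, the number called in MHCII+CD11c+ against MHCII+CD11c− controls was 1 in the reported fit, 3 by the DESeq2 test, 5 by voom with quality weights, 4 with surrogate variables and 1 to 3 with a library left out. The count in MHCII+CD11c− against LYVE1+CX3CR1+ IC libraries was 2, and it was 1 at a threshold of 0.01, 0 by voom, 1 in a fit of these groups alone, 4 with surrogate variables and 1 to 2 with a library left out (1 without MHCII+CD11c− IC replicate 2 or LYVE1+CX3CR1+ IC replicate 3). For the IC response, MHCII+CD11c− macrophages gave 1 call, which became 0 at 0.01, 2 by DESeq2, 0 in a fit of these groups alone, 2 with surrogate variables and 0 to 2 with a library left out. LYVE1+CX3CR1+ macrophages gave 0, 1 by DESeq2, 3 with surrogate variables and 0 to 1 with a library left out (1 without IC replicate 2), and MHCII+CD11c+ macrophages gave 0 and 1 by voom. With no filter Clec9a differed from LYVE1+CX3CR1+ macrophages by 4.43 on the log2 scale. Averaged over treatments, 4 to 6 members stayed called against MHCII+CD11c− and 6 to 7 against LYVE1+CX3CR1+ macrophages.

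Several signs reversed. The IC response of Zbtb46 in MHCII+CD11c+ macrophages was −0.0033 with DESeq2 size factors, −0.0031 by the DESeq2 test, −0.039 at equal depth and −0.11 to 0.23 with a library left out. With surrogate variables Batf3 there was 0.0080, and with a library left out Batf3 was −0.85 to 0.033 and Flt3 was −0.074 to 0.68. Irf4 in MHCII+CD11c− against LYVE1+CX3CR1+ IC libraries was 0.089 by voom, 0.13 with surrogate variables and −0.32 to 0.086 with a library left out, and the IC response of Ccr7 in MHCII+CD11c− macrophages, −1.73 in the reported fit, was 0.038 with surrogate variables and −2.40 to −0.097 with a library left out. The cause was not tested for any of these.

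The sources used here do not say whether replicate numbers pair the samples, and the reported fit did not pair them. Same-numbered MHCII+CD11c+ and MHCII+CD11c− control libraries had correlations of 0.0986, 0.286 and 0.0796, and all 6 correlated best with their own number. A replicate block over all libraries called 2 members in that control comparison, and a block within treatment, chosen after seeing the data, called 3. Over the alternatives, 217 summary counts stayed within 1.5 times the reported count or kept their call, and 26 did not. Of the other values compared, 3409 stayed the same, 204 were weaker, 124 were stronger and 14 reversed. Precision is limited by 2 MHCII+CD11c+ IC libraries and, for Clec9a, by counts near the floor.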

Other observations

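Kit, the stem cell factor receptor that marks early progenitors, some dendritic cells and mast cells, held 7 counts in the 3 MHCII+CD11c+ control libraries together. After IC it was 12.9 and 10.3 CPM in the 2 MHCII+CD11c+ libraries, and 3.09 CPM in 1 MHCII+CD11c− IC library. It was not called, and the mast cell marker sum was 0 to 3.40 CPM in those controls and 7.49 to 35.9 CPM after IC. Whether mast cell RNA contributed to the Kit level was not tested.

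The neutrophil marker sum was 74.3 to 271 CPM in the MHCII+CD11c+ controls and 25.1 to 29.5 CPM after IC. S100a8, an abundant neutrophil gene, was 16.0 to 62.3 CPM in these controls and 0.366 to 0.735 CPM after IC. It was not called (edgeR, adjusted p = 0.252), nor was any of the 6 neutrophil genes tested. Csf3r went the other way, with a log2 difference of 0.79 ± 0.44. In MHCII+CD11c+ macrophages the macrophage factor Maf was called higher after IC (1.38 ± 0.23, edgeR, adjusted p = 0.0097). In MHCII+CD11c− macrophages Cbfa2t3 fell after IC (−1.57 ± 0.31, adjusted p = 0.0180).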
